A study of Homo sapiens with 4 samples.

Results

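The genes that copy DNA were followed across 4 RNA-seq libraries of LNCaP cells, an androgen-sensitive human prostate cancer line. The set holds 47 genes, named for their part in DNA replication or in the supply of its nucleotides, out of 19801 genes in each library. All 47 were found by Entrez Gene identifier, and all 47 reached an RPKM (reads of a gene divided by the length of its exons and by the size of the library) of at least 1 in at least 1 library, as did 14626 of all genes. Cells were transfected for 24 h with an empty vector plasmid or with a plasmid for AR1-651, a truncated androgen receptor without the ligand-binding domain. Each was then left without compound or given Ailanthone (AIL), a natural compound from Ailanthus altissima, for 12 h. The groups were thus empty vector and AR1-651, each without and with AIL (named empty vector + AIL and AR1-651 + AIL), with 1 library per group. Where 4 values follow each other in the text, they stand for empty vector without and with AIL and then for AR1-651 without and with AIL. All 4 groups share the LNCaP background, and the plasmids were delivered transiently, so a library can mix transfected and untransfected cells. With 1 library per group no difference has a replicate error and no p-value is given. The study asked whether AIL acts on transcription driven by the truncated receptor.

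DNA replication starts at origins bound by the origin recognition complex (ORC). CDC6 and CDT1 then load the ring of MCM2 to MCM7 onto DNA in G1, and geminin (GMNN) blocks further loading by binding CDT1 once S phase has begun. CDC45 and the GINS complex turn the loaded ring into the working helicase, after which primase and polymerase alpha lay down primers, polymerases delta and epsilon extend them on the PCNA clamp, and RPA covers single-stranded DNA. Many of these genes carry E2F sites in their promoters and are transcribed around the start of S phase.

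RPKM divides by exon length, so levels can be set beside each other between genes. POLD2, a small accessory subunit of polymerase delta, had the highest level of the set with empty vector, at 168 RPKM. TK1, the thymidine kinase of the salvage pathway, followed at 74.5 RPKM and PCNA, the sliding clamp, at 60.5 RPKM. POLE2, a subunit of polymerase epsilon, had the lowest level, at 1.66 RPKM. The median of the 47 genes was 13.0, 15.1, 12.6 and 15.2 RPKM, beside 9.26, 9.27, 6.83 and 8.47 RPKM over all genes tested. Summed over the set, the level was 960, 957, 964 and 1005 RPKM. In RPKM as deposited, the sum of the set thus differed little between libraries while its members moved in both directions. The RPKM of all genes summed to 502594, 535851, 646882 and 566155 in the same libraries. Whether the set's sum is level therefore depends on the scaling. Of the 47 genes, 14 were highest in empty vector, 8 in empty vector + AIL, 9 in AR1-651 and 16 in AR1-651 + AIL, and 17 were lowest in AR1-651. Over all genes tested, 37.6%, 21.3%, 14.9% and 26.2% were highest in these libraries in the same order, and 36.5% were lowest with AR1-651.

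**Figure D1:**
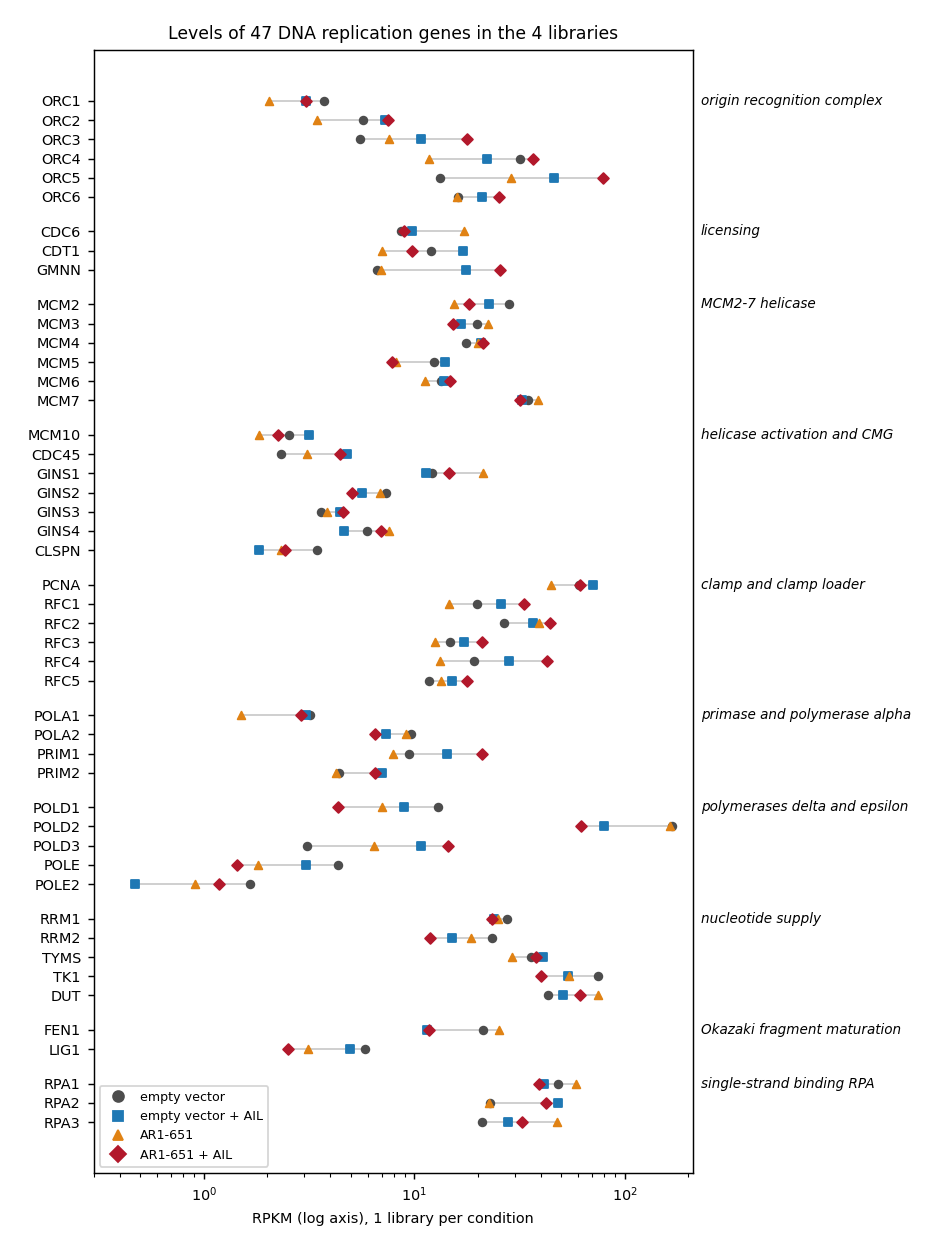
RPKM (x axis, log scale) of each of the 47 replication genes (y axis, grouped by role) in the 4 libraries, 1 point per library, with a grey line from the lowest to the highest point. The MCM2 to MCM7 rows span little, whereas ORC5 runs from 13.2 to 78.8 RPKM and POLD2 from 61.8 to 168 RPKM.

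Promoters show what the set shares in sequence. RefSeq windows on GRCh38.p14, from 250 bases before to 50 bases after the annotated start, were matched for 41 of the 47 genes. MCM4, MCM5, GINS4, POLD3, RPA2 and RPA3 were not matched. The letters TTTGGCGC, TTTCCCGC, TTTGCCGC and TTTCGCGC, which spell the E2F consensus, were searched on both strands. TTTGGCGC and the reverse of TTTCGCGC can overlap, and do so in MCM6. At least 1 match was present in 19 of 41 windows (46.3%), against 3.33% of all 27305 RefSeq windows of that length and 5.26% of the 11173 windows of genes tested. The letters CCAAT were present in 56.1% of the members' windows and in 35.7% of all windows. All 4 windows of MCM2 to MCM7 that were matched held the E2F letters, as against 1 of 6 ORC windows. The 250 bases before the start are printed for MCM6 and MCM7, whose levels stayed within 2-fold, and for ORC5, GMNN and POLD2, which were called with AIL in both backgrounds. The sequences run 5' to 3' on the gene's strand, and capitals mark the E2F letters on either strand.
MCM6, chr2:135876444-135876693, minus strand: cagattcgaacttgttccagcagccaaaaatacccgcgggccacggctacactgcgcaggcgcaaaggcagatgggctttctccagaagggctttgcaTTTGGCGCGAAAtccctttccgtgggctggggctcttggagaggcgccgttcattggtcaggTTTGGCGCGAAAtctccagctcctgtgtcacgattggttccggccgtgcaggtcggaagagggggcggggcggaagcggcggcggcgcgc
MCM7, chr7:100101398-100101647, minus strand: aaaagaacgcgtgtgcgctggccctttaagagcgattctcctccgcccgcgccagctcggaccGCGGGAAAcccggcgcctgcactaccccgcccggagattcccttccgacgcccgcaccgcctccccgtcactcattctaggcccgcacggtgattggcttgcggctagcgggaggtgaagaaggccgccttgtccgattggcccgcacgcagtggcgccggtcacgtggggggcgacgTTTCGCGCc
ORC5, chr7:104208014-104208263, minus strand: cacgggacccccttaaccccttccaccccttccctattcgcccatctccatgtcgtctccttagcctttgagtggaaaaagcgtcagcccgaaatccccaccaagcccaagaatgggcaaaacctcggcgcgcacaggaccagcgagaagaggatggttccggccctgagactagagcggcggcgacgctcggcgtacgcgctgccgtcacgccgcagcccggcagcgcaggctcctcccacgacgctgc
GMNN, chr6:24774687-24774936, plus strand: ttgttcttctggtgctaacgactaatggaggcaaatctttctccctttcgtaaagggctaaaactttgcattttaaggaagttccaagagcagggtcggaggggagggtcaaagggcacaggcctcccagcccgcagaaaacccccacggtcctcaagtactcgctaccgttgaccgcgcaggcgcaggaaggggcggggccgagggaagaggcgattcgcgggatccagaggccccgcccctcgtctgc
POLD2, chr7:44123549-44123798, minus strand: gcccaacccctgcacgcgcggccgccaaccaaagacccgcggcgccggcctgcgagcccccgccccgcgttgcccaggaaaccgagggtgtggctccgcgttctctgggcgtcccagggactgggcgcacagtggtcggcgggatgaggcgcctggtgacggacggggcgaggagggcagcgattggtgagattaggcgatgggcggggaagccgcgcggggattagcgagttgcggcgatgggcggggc
The last 3 sequences hold none of these letters, which says only that they are absent from this window. Among members with a matched window, 1 of 9 that changed at least 2-fold with AIL in either background held the E2F letters, and 18 of 32 of the others did. These shares are a description, and a match is not evidence that a factor binds there.

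The libraries differ in ways that touch every gene. The depth was 4900000 to 5790000 counted reads, recovered from the steps of RPKM in short genes, and a member had from 3.87 to 1631 estimated reads in a library. The share of the summed RPKM that went to ribosomal protein genes was 32.8% in AR1-651 and 22.1% to 25.3% in the other libraries. All 10 LNCaP markers reached 1 RPKM in every library, among them KLK3, which encodes PSA. Of 12 markers of basal, fibroblast, endothelial and blood cells, 7 were analysed here, their summed level was 3.11 to 6.75 RPKM, and COL1A1 alone reached 1 RPKM in any library. No check of the construct is reported here, and AR1-651 below means the library labelled AR1-651.

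Changes were taken as differences of log2(RPKM + 1), and raised or lowered is written of genes whose log2 change was at least 1 in size, which is 2-fold. In bulk RNA, a change in the share of cells in a given phase and a change in RNA per cell cannot be told apart. With AR1-651 against empty vector, 2 members were raised and 1 was lowered, where 4.01% of all genes tested were raised and 11.6% were lowered. The raised members were RPA3 and ORC5 and the lowered one was ORC4. The median change of the members was -0.08, against -0.30 over all genes. Median-ratio scaling moved the median of all genes to -0.09 and that of the members to 0.16, so the members lay above the median of all genes under both. With the length and GC trend removed they did not, at -0.05 against -0.02. With empty vector + AIL against empty vector, 4 members were raised (ORC5, POLD3, GMNN and RPA2) and POLD2 alone was lowered, where 9.53% of all genes were raised and 9.03% lowered. The median was 0.16, against -0.02 over all genes. With AR1-651 + AIL against AR1-651, 8 members were raised (GMNN, RFC4, ORC4, ORC5, PRIM1, ORC3, RFC1 and POLD3) and 2 were lowered (POLD2 and FEN1), where 14.9% of all genes were raised and 5.74% lowered. The median was 0.19, against 0.13 over all genes. In AR1-651 + AIL against empty vector + AIL no member was called, where 1.46% of all genes were raised and 3.53% lowered, and the median was 0.01, against -0.03.

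The shares of members raised in the first 3 comparisons, 4.26%, 8.51% and 17.0%, lay near those of all genes. The shares lowered, 2.13%, 2.13% and 4.26%, were below those of all genes and rest on 1 or 2 members each, so the counts are no result about replication genes as a set. ORC5, GMNN and POLD3 were raised with AIL in both backgrounds and POLD2 was lowered in both. Altogether 22 members were higher with AIL in both backgrounds, 15 were lower in both and 10 had opposite signs, and over all genes 27.8% had opposite signs. The shares of all genes raised, lowered, higher or lower in both backgrounds are not given here. The counts of members that went the same way in both are thus no result about the set. The AIL comparisons have no library in common, but each shares a library with the comparison of AR1-651 with empty vector.

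**Figure D2:**
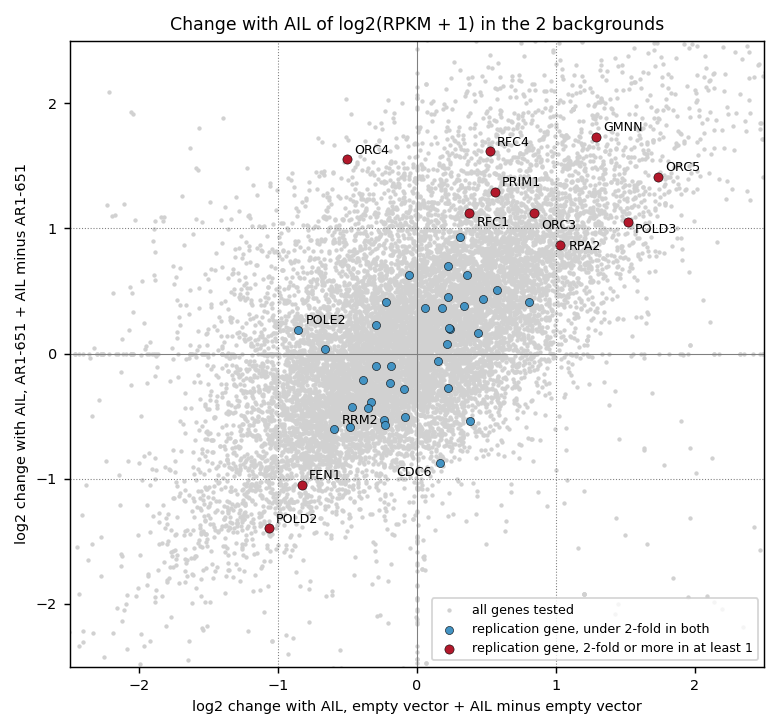
Change of log2(RPKM + 1) with AIL in cells with empty vector (x axis) and with AR1-651 (y axis), where each point is a gene, grey for all genes tested within 2.5 of 0 on both axes, blue for replication genes under 2-fold in both backgrounds and red for those at 2-fold or more in at least 1. GMNN, ORC5 and POLD3 lie past 1 on both axes, POLD2 lies below -1 on both, and ORC4 is low on the x axis and high on the y axis.

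Among the 6 ORC subunits, which mark origins, ORC5 varied most, with its highest level 5.96 times its lowest. ORC5 was at 13.2 RPKM without and 46.3 RPKM with AIL in empty vector cells and at 28.96 and 78.8 RPKM in AR1-651 cells. Each library with AIL was thus above both libraries without it. The ratio with AIL was 3.51 in empty vector (95% interval of counting error only, 2.84 to 4.38) and 2.72 in AR1-651 (2.36 to 3.14), with log2 changes of 1.74 and 1.41. ORC4 was at 31.7, 22.1, 11.8 and 36.5 RPKM in the same order of libraries. It was lowest with AR1-651, with a log2 change of -1.36 from empty vector, and the ratio with AIL was 0.70 in empty vector (0.63 to 0.77) and 3.10 in AR1-651 (2.78 to 3.47). ORC4 shares 587 exon bases with genes on the other strand in GENCODE 29. ORC3 was at 5.53, 10.7, 7.59 and 17.8 RPKM, with log2 changes with AIL of 0.84 and 1.13. Like ORC2, ORC4, ORC5 and ORC6 it was highest with AR1-651 + AIL. ORC2, at 5.69, 7.29, 3.44 and 7.49 RPKM, and ORC6, at 16.1, 20.9, 16.0 and 25.3 RPKM, were not called. ORC1, the subunit whose level varies with the cell cycle, was the lowest of the complex with empty vector at 3.74 RPKM and stood at 3.05, 2.05 and 3.07 RPKM in the others. Added up, the complex was at 75.9 RPKM without and 110 RPKM with AIL in empty vector cells and at 69.8 and 169 RPKM in AR1-651 cells. All 6 subunits were higher with AR1-651 + AIL than with AR1-651 under each of the scalings tried, and 3 of 6 were called. The ORC4, ORC5 and ORC3 transcripts have GC contents of 37.5%, 38.6% and 39.6%, and once the dependence on the length and GC content of transcripts was removed their changes with AIL in AR1-651 were 0.74, 0.66 and 0.40, below the 2-fold line. The change of ORC5 with AIL in empty vector was 1.52 after that step. With AR1-651 against empty vector ORC5 had a log2 change of 1.08, which was 1.06 after that step and 0.92 when RPKM was rescaled to the total without ribosomal protein genes, and ORC4 had -0.66 after that step. ORC3 with AIL in AR1-651 had 0.93 with median-ratio scaling.

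Of the licensing factors, GMNN was at 6.64 RPKM without and 17.7 RPKM with AIL in empty vector cells and at 6.97 and 25.5 RPKM in AR1-651 cells. Both libraries with AIL were above both without it. The ratios with AIL were 2.66 (1.81 to 3.98) and 3.66 (2.61 to 5.26), with log2 changes of 1.29 and 1.73, and of 1.03 and 1.26 with the length and GC trend removed. CDT1, the loading factor that geminin binds, was at 12.0, 17.0, 7.00 and 9.80 RPKM and was not called. The ratio of GMNN to CDT1 was 0.56 and 1.04 without and with AIL in empty vector and 1.00 and 2.60 in AR1-651. These ratios are of RPKM as deposited, and the 2 transcripts have GC contents of 41.7% and 64.9%. With the length and GC trend removed, CDT1 had log2 changes with AIL of 0.60 and 0.58. With AR1-651 against empty vector GMNN then had -0.14 and CDT1 -0.08, so the ratio's rise there was not seen. CDC6, the partner of CDT1 in loading, had another pattern, at 8.63, 9.79, 17.3 and 8.98 RPKM. It was high with AR1-651 alone, with a log2 change of 0.93 from empty vector and of -0.88 with AIL, both short of the 2-fold line, although the ratio with AR1-651 was 2.01 (1.62 to 2.5) without the pseudocount. These changes passed the line with median-ratio scaling (1.18 and -1.08) and with the length and GC trend removed (1.08 and -1.23).

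No subunit of the MCM2 to MCM7 helicase, the motor of the fork, was called in any of the 4 comparisons. MCM7 was its highest subunit with empty vector, at 34.7 RPKM without and 32.4 RPKM with AIL in empty vector cells and at 38.9 and 31.7 RPKM in AR1-651 cells. MCM5, the lowest in both AR1-651 libraries, was at 12.4, 13.9, 8.21 and 7.82 RPKM. MCM2 was at 28.1, 22.7, 15.4 and 18.3 RPKM, and its log2 change of -0.83 with AR1-651 was the largest of the 6. In RPKM as deposited, MCM2 and MCM5 were thus below their empty vector level in both AR1-651 libraries. With the length and GC trend removed, the change with AR1-651 against empty vector was -0.31 for MCM2 and -0.09 for MCM5. Between the libraries with AIL it was then 0.15 and -0.37. MCM3 ranged from 15.2 to 22.4 RPKM, MCM4 from 17.7 to 21.2 and MCM6 from 11.2 to 14.8. The sum over the 6 subunits was 126, 120, 116 and 109 RPKM as deposited, with ratios with AIL of 0.95 in empty vector and 0.94 in AR1-651. The same ratios for the summed ORC subunits, which recruit the helicase, were 1.45 and 2.42. In empty vector the ORC sum rose from 75.9 to 110 RPKM with AIL, and ORC5 made up most of that rise. ORC5 went from 13.2 to 46.3 RPKM, while ORC1 and ORC4 were lower with AIL.

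The factors that activate the helicase were low and none was called from RPKM as deposited. GINS1 was the highest, at 12.1 RPKM without and 11.3 RPKM with AIL in empty vector cells and at 21.1 and 14.6 RPKM in AR1-651 cells, and its log2 change with AR1-651 was 0.76. That change was 1.01 with median-ratio scaling and 1.03 with the length and GC trend removed, and its change with AIL in AR1-651 was -1.08 with that trend removed, so GINS1 passed the 2-fold line there. CDC45 was at 2.32, 4.81, 3.08 and 4.44 RPKM, with a log2 change with AIL of 0.81 in empty vector. Without the pseudocount that ratio was 2.07 (1.24 to 3.69). CLSPN, which encodes claspin and carries the replication checkpoint signal to CHK1, was at 3.47, 1.83, 2.34 and 2.43 RPKM. CDC45 and CLSPN rest on 22.5 to 72.3 estimated reads a library, so their counting error is wide. MCM10, GINS2, GINS3 and GINS4 stayed between 1.84 and 7.55 RPKM in the 4 libraries.

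The clamp loader RFC opens PCNA and closes it around DNA, and its subunits RFC4 and RFC1 were called with AIL in AR1-651. RFC4 was at 19.3 RPKM without and 28.2 RPKM with AIL in empty vector cells and at 13.3 and 42.8 RPKM in AR1-651 cells. It was lowest with AR1-651, and the ratios with AIL were 1.46 (1.16 to 1.83) and 3.22 (2.57 to 4.04), the latter a log2 change of 1.62. RFC1, the large subunit, was at 19.8, 25.96, 14.6 and 33.0 RPKM, with log2 changes with AIL of 0.37 and 1.12, the latter 0.92 with median-ratio scaling. RFC2 was at 26.8, 36.5, 39.2 and 44.1 RPKM. Like RFC1, RFC3, RFC4 and RFC5, it was highest with AR1-651 + AIL. PCNA was at 60.5, 70.6, 44.4 and 61.0 RPKM, and RFC5, the lowest with empty vector, at 11.8, 15.2, 13.4 and 17.8 RPKM. RFC3 ranged from 12.6 to 21.1 RPKM. All 6 genes were higher with AIL in both backgrounds from RPKM as deposited and from the total without ribosomal protein genes, but with median-ratio scaling RFC2 was lower in AR1-651 (-0.05), and with the length and GC trend removed PCNA (-0.03) and RFC3 (-0.02) were lower in empty vector. The summed level was 153, 194, 138 and 220 RPKM. With that trend removed RFC4 remained past 2-fold in AR1-651 (1.31) and RFC1 did not (0.58).

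Primase and polymerase alpha together lay down the primers. PRIM1, the catalytic subunit of primase, was at 9.43 RPKM without and 14.4 RPKM with AIL in empty vector cells and at 7.92 and 20.9 RPKM in AR1-651 cells. Its log2 changes with AIL were 0.56 and 1.29, and the latter was 0.67 with the length and GC trend removed. PRIM1 shares 395 exon bases with genes on its own strand. POLA2, the highest of the 4 with empty vector, was at 9.70, 7.36, 9.15 and 6.50 RPKM. POLA1, the polymerase subunit and the lowest, was at 3.21, 3.05, 1.51 and 2.89 RPKM. Only PRIM1 of these 4 genes was called with AIL, and PRIM2 ranged from 4.25 to 7.05 RPKM.

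Subunits of the replicative polymerases moved in both directions. POLD2 was at 168 RPKM without and 79.4 RPKM with AIL in empty vector cells and at 164 and 61.8 RPKM in AR1-651 cells. Both libraries with AIL were below both without it, and the libraries without AIL were nearly level. The ratios with AIL were 0.47 (0.43 to 0.52) and 0.38 (0.34 to 0.41), with log2 changes of -1.07 and -1.39, and of -1.09 and -1.28 with the length and GC trend removed. POLD3, a subunit of polymerase delta that binds PCNA, went the other way, at 3.09, 10.7, 6.46 and 14.5 RPKM. It was higher in both libraries with AIL than in both without. Its ratios with AIL were 3.47 (2.54 to 4.87) and 2.24 (1.80 to 2.82), with log2 changes of 1.52 and 1.05, and of 1.45 and 0.71 with that trend removed. In AR1-651 it was 0.86 with median-ratio scaling. With AR1-651 against empty vector it was 1.09 with median-ratio scaling and 1.11 with that trend removed, past the 2-fold line. The subunits of 1 enzyme thus lay on opposite sides of their untreated levels. The level of POLD2 was 54.2 times that of POLD3 without and 7.42 times with AIL in empty vector, and 25.4 and 4.27 times in AR1-651. POLD3 shares 123 exon bases with a gene on its own strand, and POLD2 has 1 named pseudogene. POLD1, the catalytic subunit of polymerase delta, was at 13.0, 8.98, 7.05 and 4.35 RPKM. POLE, the catalytic subunit of polymerase epsilon, was at 4.33, 3.06, 1.82 and 1.44 RPKM. Both catalytic subunits were lowest with AR1-651 + AIL and neither was called in any comparison. Without the pseudocount, the ratio of POLE was 0.42 (0.32 to 0.56) with AR1-651 against empty vector. Between the libraries with AIL the ratio was then 0.47 for POLE and 0.48 for POLD1. With AR1-651 against empty vector POLD1 had a log2 change of -0.80 and POLE of -0.92, and each had -0.14 with that trend removed. POLE2 was at 1.66, 0.47, 0.91 and 1.18 RPKM, which is 14.4, 3.87, 8.56 and 11.5 estimated reads, so its order of libraries is not resolved at this depth. Its change with AIL in empty vector was -1.11 with the length and GC trend removed.

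**Figure D3:**
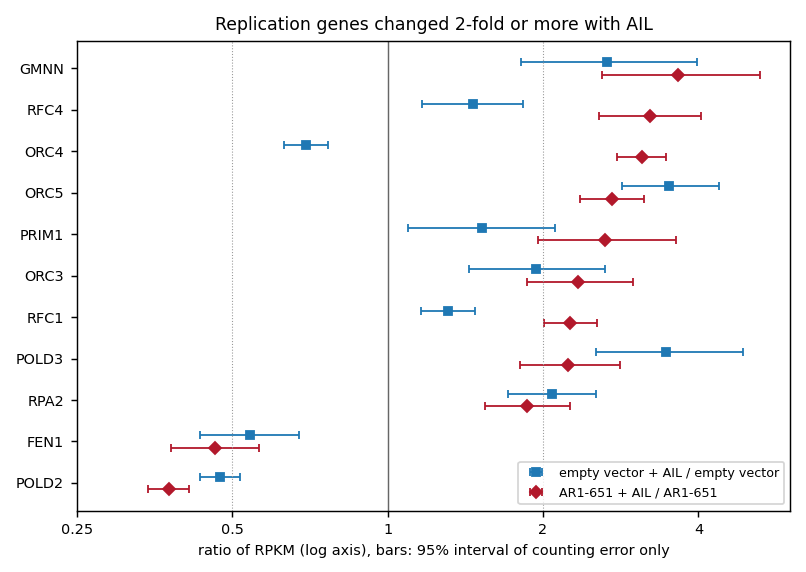
Ratio of RPKM with AIL to RPKM without it (x axis, log scale) for the 11 replication genes (y axis) that changed at least 2-fold in either background, blue squares for empty vector and red diamonds for AR1-651, with bars for the 95% interval of counting error only. POLD2 and FEN1 lie left of 1 in both backgrounds, ORC4 lies on opposite sides of 1, and the other 8 genes lie right of 1 in both.

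Genes of nucleotide supply were not called in any comparison from RPKM as deposited. TK1 was at 74.5 RPKM without and 53.7 RPKM with AIL in empty vector cells and at 54.3 and 40.1 RPKM in AR1-651 cells. It was lower with AIL in both backgrounds. RRM2, the regulated subunit of ribonucleotide reductase and the lowest of the group, was at 23.4, 15.1, 18.6 and 11.9 RPKM. RRM1, its large subunit, was at 27.5, 24.0, 25.1 and 23.4 RPKM. The ratio of RRM2 to RRM1 was 0.85, 0.63, 0.74 and 0.51, lower with AIL in each background. The ratios of RRM2 with AIL were 0.65 (0.55 to 0.76) and 0.64 (0.54 to 0.76), and its log2 change in AR1-651 was -1.08 with the length and GC trend removed. DUT, the dUTPase, was highest with AR1-651, at 43.2, 50.7, 74.7 and 61.5 RPKM, and has 8 named pseudogenes that can share its reads. Its log2 change with AR1-651 was 1.04 with median-ratio scaling. TYMS, the thymidylate synthase, ranged from 29.1 to 40.7 RPKM.

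For Okazaki fragment maturation, FEN1, the flap nuclease, was at 21.2 RPKM without and 11.5 RPKM with AIL in empty vector cells and at 25.3 and 11.7 RPKM in AR1-651 cells. Both libraries with AIL lay at about the same level, below both without it. The ratios with AIL were 0.54 (0.43 to 0.67) and 0.46 (0.38 to 0.56), and the log2 changes were -0.83, short of the 2-fold line, and -1.05. FEN1 shares 49 exon bases with a gene on its own strand and 166 with one on the other strand, and has 1 named pseudogene. LIG1, the ligase that seals the fragments, was lower in both libraries with AR1-651, at 5.83, 4.96, 3.14 and 2.52 RPKM. Its log2 change was -0.72 with AR1-651 against empty vector and -0.76 between the libraries with AIL. With the length and GC trend removed these changes were -0.20 and -0.27.

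The 3 subunits of RPA had different patterns. RPA2 was at 23.0 RPKM without and 47.9 RPKM with AIL in empty vector cells and at 22.6 and 42.2 RPKM in AR1-651 cells. It was about level without AIL and higher with it, with ratios of 2.09 (1.71 to 2.53) and 1.86 (1.54 to 2.25) and log2 changes of 1.03 and 0.87. RPA3, the small subunit, was at 21.1, 27.8, 47.6 and 32.5 RPKM. It was highest with AR1-651, at 2.26 times its level with empty vector (1.92 to 2.66), a log2 change of 1.14. That change was 1.11 with the length and GC trend removed and 0.98 with the total without ribosomal protein genes, and RPA3 shares 188 exon bases with genes on the other strand. RPA1, the large subunit that contacts DNA, ranged from 39.2 to 58.6 RPKM. The ratio of RPA2 to RPA1 was 0.48 and 0.39 without AIL and 1.17 and 1.07 with AIL, in empty vector and AR1-651 respectively. RPA2 has 3 named pseudogenes, and its change in empty vector was 0.85 with the length and GC trend removed and 0.93 with the total without ribosomal protein genes, below the 2-fold line.

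All calls at 2-fold in the 3 comparisons that had any (3, 5 and 10 members) had counting intervals clear of 1. The intervals were computed from the same RPKM values as the calls, so they are no separate support for them. Of the 45 members with a transcript length, 17 had an interval above 1 and 11 below 1 with AIL in empty vector, where the shares over all genes were 31.5% and 30.7%. With AIL in AR1-651 these counts were 18 and 13, where the shares over all genes were 39.1% and 23.9%. With AR1-651 against empty vector 9 were above and 17 below, where the shares were 17.8% and 44.2%. Between the libraries with AIL 12 were above and 10 below, where the shares were 23% and 27.2%. The remaining 14 to 23 members of a comparison had intervals that held 1, so their differences were not detectable at this depth. The spread between repeated cultures is unknown.

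The changes of the members moved with the GC content of their transcripts. Across 45 members, Spearman's rho of the change with GC content was -0.34 for AIL in empty vector, -0.54 for AIL in AR1-651 and -0.71 for AR1-651 + AIL against empty vector + AIL. Over 14005 genes the values were -0.06, -0.41 and -0.61. These are correlations across genes of the same libraries and a description only. In the 15 members of lowest GC content (37.5% to 43.1%) the median change with AIL in AR1-651 was 0.70, beside 0.61 over all genes in that range. In the 15 of highest GC content (50.7% to 64.9%) it was -0.23, beside -0.14. With AIL in empty vector the medians of the same members were 0.22 and -0.24, beside 0.02 and -0.08 over all genes in those ranges. ORC3, ORC4, ORC5, RFC1 and PRIM1 have low GC content and POLD2 high, and the part of GC content in their changes was not tested beyond the removal of the trend, given beside each gene.

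**Figure D4:**
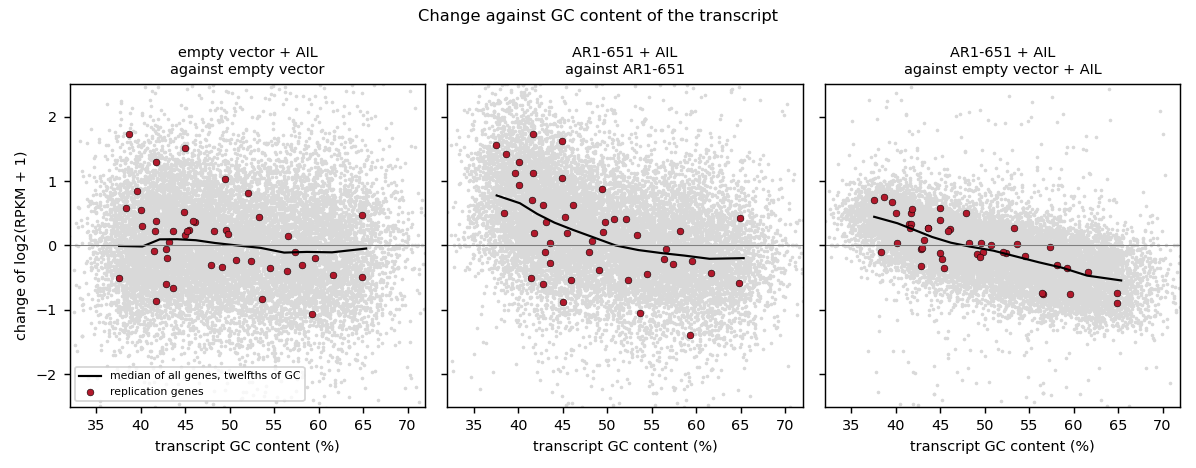
Change of log2(RPKM + 1) (y axis) against GC content of the transcript in percent (x axis) in 3 comparisons, grey points for all genes tested within the axes, red points for the 45 replication genes with a transcript sequence, and a black line for the median of all genes in twelfths of GC content. The red points fall with GC content most in the right panel, where rho over the members is -0.71.

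Other genes of the same processes were taken from lists. Of 37 further replication genes 36 were tested. With AR1-651 against empty vector 2 were raised and 3 lowered (median -0.32), where 4.01% and 11.6% of all genes were. With AIL in empty vector 1 was raised and 3 were lowered (median -0.05), where 9.53% and 9.03% of all genes were. With AIL in AR1-651 5 were raised and 0 lowered (median 0.17), where 14.9% and 5.74% of all genes were. MCMBP, which binds MCM subunits, was at 12.8 RPKM without and 27.4 RPKM with AIL in empty vector cells and at 12.9 and 29.5 RPKM in AR1-651 cells. CDC7, the kinase that phosphorylates the MCM ring, was at 5.95, 9.92, 2.92 and 11.1 RPKM. Both were higher in the libraries with AIL. UHRF1, which helps to maintain DNA methylation behind the fork, was at 5.62, 2.08, 2.27 and 1.49 RPKM, and TIMELESS, a fork protection factor, at 15.0, 7.64, 9.82 and 5.11 RPKM. MCMBP was thus called with AIL in both backgrounds, CDC7 in AR1-651 (log2 change 1.63) and UHRF1 in empty vector (-1.10), while TIMELESS was at -0.89 and -0.82. With the length and GC trend removed the called changes were 0.95 and 0.80 for MCMBP, 0.86 for CDC7 and -0.95 for UHRF1, below the 2-fold line.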

How the data were processed

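RNA of LNCaP cells was sequenced on the Illumina HiSeq2000, with 1 library for each of the 4 groups, which were taken from the treatment labels. The kit named in the labels is stranded total RNA with ribosomal RNA removal, and the protocol also names oligo(dT) selection. The authors deposited RPKM per gene, rounded to 2 decimals, and the submitters' processing notes name BWA 0.7.10-r789 and hg19. The counting tool, its strand setting and the treatment of spliced reads are not given in the sources used here, so reads of genes that overlap on the other strand, or of pseudogenes, may be shared. In GENCODE 29, 18 members share exon bases with a gene on the other strand, 6 with a gene on the same strand, and 9 have named pseudogenes.

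Changes were differences of log2(RPKM + 1) over the 14626 genes that reached an RPKM of 1 in any library, which understates the change of low genes. Without replicates no test was run, and a call means a change of at least 2-fold. The members and lists were chosen with earlier results of these data known. All members were described by role, with values for those called, for the 3 largest rises and falls in each comparison and for the highest and lowest of each role. Of the other lists, the largest rise and fall with AIL and a few cell cycle genes were named. Depth was found from RPKM steps of genes of 55 to 300 bases, using the values that came to only a few reads (98 to 141 a library). With the length reduced by 36 bases, 86.2% to 87.8% of these values lay within 0.02 of a whole read. The 36 bases and the depth were chosen to put the most values on a step, so this share is no separate check. Reads per member were estimated from mean transcript lengths in GENCODE 29 (45 of 47 members), and ratio intervals are exact conditional (Clopper-Pearson) 95% intervals. They cover counting error only. The alternatives were median-ratio scaling, a pseudocount of 0.1, a filter at RPKM 5 or none, a 1.5-fold threshold, rescaling to the RPKM total without ribosomal protein genes, and removal of a trend of degree 3 in the ranks of transcript length and GC content. Calculations were tested on simulated data and used Python 3.11.15, NumPy 2.4.6, pandas 2.3.3, SciPy 1.17.1 and matplotlib 3.10.9. No gene positions are given in the build of the files, because the reference differs from it. Exon overlaps are from GENCODE 29 and promoter windows from RefSeq, both on GRCh38.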

Additional observations from a re-analysis of the deposited data

Results flagged for a closer look

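In 10 replication genes the change with AIL had opposite signs in the 2 backgrounds. The difference was not tested, since each background has 1 library with AIL and 1 without. The untreated libraries are also those of the comparison of AR1-651 with empty vector. Taken as the change in AR1-651 minus the change in empty vector on the log2(RPKM + 1) scale, the difference was 2.06 for ORC4, 1.05 for POLE2, 0.70 for CLSPN, 0.69 for POLA1, 0.64 for ORC1 and 0.53 for MCM2. It was -1.04 for CDC6, -0.92 for RPA3, -0.50 for DUT and -0.21 for MCM5. The untreated AR1-651 library held the lowest of the 4 values for ORC4, POLA1, ORC1 and MCM2, and the highest for CDC6, RPA3 and DUT. Over all genes 27.8% had opposite signs. POLE2 rests on 3.87 to 14.4 estimated reads a library. For ORC4, MCM2, DUT and RPA3 the counting intervals of the ratios lay on opposite sides of 1. For CDC6, POLA1, CLSPN, POLE2, ORC1 and MCM5 the interval held 1 in at least 1 background, so their opposite signs are not resolved at this depth. The difference of ORC4 was 1.05 with the length and GC trend removed. With that trend removed, POLA1, MCM5, CLSPN, POLE2 and DUT, 5 of the 10, no longer had opposite signs, and the difference of POLA1 was 0.12. Other members gained opposite signs at that step, namely MCM4, MCM6, MCM7, MCM10, PCNA, RFC3 and PRIM2. The changes of PRIM2 with AIL were then 0.36 in empty vector and -0.21 in AR1-651.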

How the results depend on the processing

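Of 94 values of the comparisons recomputed under the alternatives, 67 moved by at most 1.5 times (counts) or 0.1 (medians) and 27 moved further, and the medians with AR1-651, with AIL in AR1-651, between the libraries with AIL and of the difference changed sign as given here. A pseudocount of 0.1 gave 3 lowered members with AR1-651 and 2 with AIL in empty vector, and 1 raised and 2 lowered between the libraries with AIL, where 20.8%, 14.6%, and 3.48% and 7.93% of all genes were. Median-ratio scaling gave a median of 0.16 and 6 raised (7.29% of all genes) with AR1-651, a median of 0.024 and 5 raised (10.8% of all genes) with AIL in AR1-651, and a median difference between backgrounds of -0.20, against -0.03 as deposited. At 1.5-fold, 6 members were raised and 9 lowered with AR1-651, 5 were lowered with AIL in empty vector, 13 were raised and 5 lowered with AIL in AR1-651, and 3 were raised and 5 lowered between the libraries with AIL. Over all genes, 10.7% were raised and 32.3% lowered, 22.1% lowered, 28.6% raised and 14.7% lowered, and 7.73% raised and 15.5% lowered at that threshold in the same order. The total without ribosomal protein genes gave a median of -0.23, 0 raised and 2 lowered with AR1-651, where all genes had a median of -0.43, 2.79% raised and 17.1% lowered. It gave a median of -0.0075 between the libraries with AIL and a median difference of 0.093. Removal of the length and GC trend gave 5 raised and 0 lowered with AR1-651, a median of 0.012 and 2 lowered with AIL in empty vector, and a median of -0.081, 2 raised and 5 lowered with AIL in AR1-651, where 4.71% and 3.76%, 8.45% lowered, and 8.27% and 7.5% of all genes were called. Apart from settings whose construction shows it, the cause was not tested. Of 108 values of single called members, 14 no longer reached 2-fold, 8 of them with the trend removed, and 0 changed sign. The settings with no filter and with a filter at RPKM 5, 18 values each, leave the value of a single gene as it is and could not move it. Among the 94, the members' values with no filter and their medians at the 1.5-fold threshold were fixed in the same way. The counts of values that stayed the same therefore overstate the stability. No paired analysis was possible because the labels give no replicate numbers and each group has 1 library, and for the same reason no library could be left out. Depth limits POLE2 most.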

Other observations

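Cell cycle genes outside the replication set were described from lists in the same way. Of 26 G1/S regulators 23 were tested, with 1 raised and 1 lowered with AR1-651 against empty vector, 4 raised and 0 lowered with AIL in empty vector and 2 raised and 0 lowered with AIL in AR1-651. Over all genes 4.01% and 11.6%, 9.53% and 9.03%, and 14.9% and 5.74% were raised and lowered in these comparisons. CDKN1A and E2F7 were the 2 raised with AIL in AR1-651, and E2F5 and CDC25A were raised with them in empty vector. E2F7, E2F5 and CDC25A were named after their values were seen, with log2 changes with AIL of 1.12 and 1.43, 1.36 and 0.79, and 1.16 and 0.91 in empty vector and AR1-651. E2F7 was low, at 0.98, 3.29, 0.31 and 2.53 RPKM, and the counting interval of its ratio with AIL in AR1-651 was wide, 4.21 to 17.6. CDKN1A, which encodes the CDK inhibitor p21, was at 155 RPKM without and 551 RPKM with AIL in empty vector cells and at 132 and 361 RPKM in AR1-651 cells, with log2 changes with AIL of 1.83 and 1.44. E2F1, the activator of many replication genes, was at 17.1, 10.9, 13.3 and 6.86 RPKM in the same order. CCND1, the G1 cyclin D1, was at 105, 82.2, 105 and 64.5 RPKM. CDK4, its partner kinase, was at 61.2, 39.9, 77.0 and 39.8 RPKM, and CDKN2C, an inhibitor of CDK4, at 17.6, 9.46, 19.7 and 12.3 RPKM. All 4 were lower with AIL in both backgrounds and none was called from RPKM as deposited, although 2 of the G1/S regulators were lowered with AIL in AR1-651 with median-ratio scaling. CCNE1 and CCNE2, the E cyclins that start S phase, stayed between 6.44 and 11.3 RPKM. CDK2, their partner, was at 15.9, 13.6, 27.0 and 18.5 RPKM and was also not called.

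Of 30 mitosis genes, 0 were raised and 6 lowered with AR1-651 against empty vector, 3 were raised and 2 lowered with AIL in empty vector, and 10 were raised and 0 lowered with AIL in AR1-651, with medians of 0.15 and 0.75 for AIL. The shares of all genes are those given above, and the 6 lowered with AR1-651 stand beside 11.6% of all genes and were 1 with the length and GC trend removed, CENPF at -1.14. With AIL in AR1-651 the count raised was 6 with median-ratio scaling and 1 with the length and GC trend removed. That 1 was CDC20 (1.01), which was not among the 10 (0.92 as deposited). None of the 10 stayed past the 2-fold line with the trend removed, and NDC80 came nearest at 0.95. NDC80, of the outer kinetochore, was at 11.3, 20.9, 10.5 and 34.8 RPKM, and CENPA, the centromeric histone, at 4.18, 12.0, 7.77 and 10.6 RPKM. CENPF was at 8.33, 2.58, 1.62 and 4.91 RPKM and MKI67, which encodes Ki-67, at 5.48, 3.28, 1.62 and 3.94 RPKM. BIRC5, which encodes survivin, was at 27.6, 29.2, 38.5 and 35.5 RPKM. CENPF and MKI67 were highest with empty vector and lowest with AR1-651.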
